A study of Rattus norvegicus with 2 samples.

Results

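Transcripts of 9 rat genes of the transforming growth factor beta (TGF-beta), activin and bone morphogenetic protein (BMP) pathways were compared between an array of RMT-1 cells transfected with an siRNA against Pla2g4c and an array of RMT-1 cells transfected with a negative control siRNA. RMT-1, here clone E4, is a rat mammary tumour cell line, and Pla2g4c encodes one of the cytosolic phospholipases A2, which release fatty acids from membrane lipids. The genes were Inhba, Tgfb1, Bmp2, Bambi, Smad7, Tgfbi, Id1, Id2 and Id3, a list drawn up by pathway membership with earlier results of these data known, and each was found by the RefSeq accession of its probe among the 15159 named genes on the array. Both groups were the same clone, transiently transfected and grown in medium with fetal bovine serum, and the time from transfection to harvest is not given in the labels. Each group was 1 array, so there was no spread between samples and no test. A difference below is the log2 level on the Pla2g4c siRNA array minus that on the control array. The ± beside it is the error that the scanner software estimated for the 2 signals, a technical error within each array and no spread between cultures. For bright genes it was near a constant 0.20, so it does not follow the spread of a gene's own spots.

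Ligands of this family are secreted dimers that bring together type I and type II receptor kinases at the cell surface. The activated receptors phosphorylate Smad proteins, Smad2 and Smad3 for TGF-beta and activin and Smad1, Smad5 and Smad9 for BMPs, which bind Smad4 and act on target genes in the nucleus. In mammary epithelium TGF-beta is known for restraining proliferation and, in tumours, for promoting matrix production and epithelial-mesenchymal transition, and the Id genes are widely used as readouts of BMP signalling.

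The 9 genes did not differ in a common direction. Inhba and Bambi were at least 2-fold higher on the Pla2g4c siRNA array, Tgfbi was at least 2-fold lower, and Id1 was 1.82-fold lower. The value of Bambi rests on 1 spot with a background flag on both arrays, and was below 2-fold, at 0.59, under another background correction. Tgfb1, Smad7 and Id2 differed by less than the software's error, Bmp2 differed by little more than it, and Id3 was not well above background on either array. Of the 8 measured genes 2 were thus at least 2-fold higher, where 2.91% of all 9026 measured genes were, and 1 was at least 2-fold lower, where 3.05% were, and since the genes were listed with results known these shares only describe them. Their median difference was -0.03 and that of all genes -0.01. On 7 of the 8 genes at least 2 spots of the probe could be compared, and for 4 of them the spots of the arrays did not overlap after scaling. Across all measured named probes with 2 or more spots 78.0% had spots that did not overlap, and 4 of 7 is not above that share. In RNA of a whole culture, fewer cells that express a gene and less RNA per cell cannot be told apart.

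The 75th percentile of the gene spots was an intensity of 1105 on the Pla2g4c siRNA array, against 852 on the control array, and levels are given as a percentage of that value on the same array. Across the array 263 genes passed 2-fold in the higher direction and 275 in the lower. The deposited normalized values gave 369 higher and 190 lower, with the median of all genes at 0.12, and with 7 spike-in RNAs as the scale 1171 were higher and 68 lower, with the median at 0.54. A direction here is thus one against the median of all genes. No probe could be matched to Pla2g4c, so the knockdown itself was not analysed here. Of 10 epithelial markers 9 were measured, the keratins Krt5, Krt14 and Krt17 among them, while Krt18 had no spot well above background. Of those 9 markers 1, Epcam (1.03), was at least 2-fold higher, where 2.91% of all genes were. Krt5 (-1.72) and Krt17 (-1.63) were at least 2-fold lower, where 3.05% were. Krt14 (-0.97) and Krt8 (0.86) were under 2-fold. Their median was -0.30, with 3 of the 9 above 0 and 6 below, and their part in the results below was not tested. Of 9 fibroblast markers Col1a1 (0.13) and Col1a2 (-0.26) were measured, and Pdgfra was well above background in 9 of 9 spots on the Pla2g4c siRNA array, against 1 of 9 on the control array, at least 1.61-fold higher. Col3a1, Dcn, Lum, Pdgfrb, Postn and Thy1 had 0 spots well above background. Of 9 macrophage markers Cd68 (-0.39), Cd14 (-0.25), Csf1r (0.09) and Lyz2 (0.60) were measured, while Ptprc, a pan-leukocyte gene, Adgre1, Itgam, Cd163 and Mrc1 had 0 such spots. The part of these markers in the results was not tested.

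**Figure D1:**
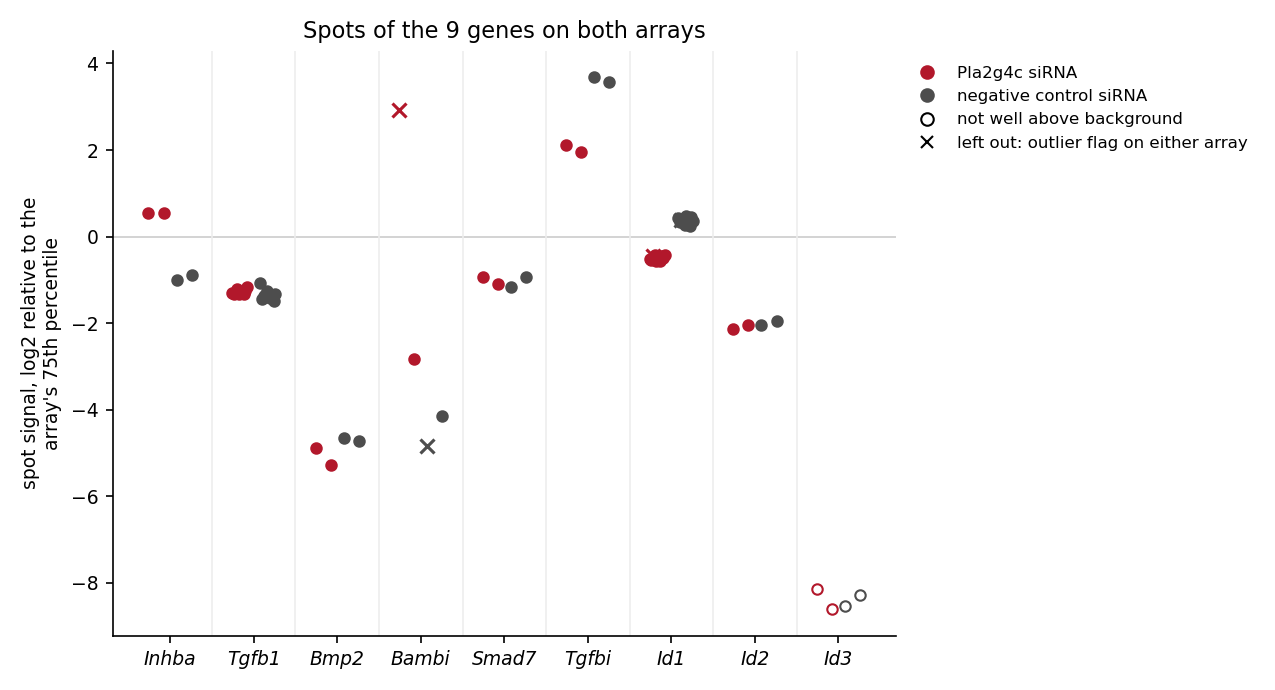
Spot signals of the 9 genes on a log2 scale relative to each array's 75th percentile, with the Pla2g4c siRNA array in red at the left of each gene and the negative control siRNA array in grey. Filled circles are spots well above background, open circles are not, and crosses are spots left out for an outlier flag on either array. The spots of Inhba, Tgfbi and Id1 lie apart between the arrays, those of Tgfb1, Smad7 and Id2 overlap, and the left-out Bambi spot on the Pla2g4c siRNA array is the highest of its probe.

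Inhba encodes the beta A subunit, whose dimer is activin A. Its level was 147% and 145% of the 75th percentile in the 2 spots of the Pla2g4c siRNA array, against 49.7% and 54.3% in the 2 spots of the control array. Both spots of the Pla2g4c siRNA array were higher than both of the control array. The difference was 1.49 ± 0.20, or 2.82-fold, and 1.09% of all measured genes had a higher one. It was at least 2-fold under each of the 10 alternatives, between 1.27 under normexp background correction and 2.04 with spike-in scaling. Not all of these could change it. For a gene of 1 probe without flagged spots, the brightest probe, no filter on dim probes and the flag settings give the same value. Median scaling, spike-in scaling and the deposited values shift all genes together.

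Tgfb1 encodes the TGF-beta 1 ligand, which is secreted in a latent complex. It was measured in 10 spots, with a lowest, median and highest level of 40.1%, 41.1% and 44.4% on the Pla2g4c siRNA array and of 36.0%, 39.0% and 47.4% on the control array. The spots of the arrays overlapped, and the difference of 0.07 ± 0.20 was within the software's error. The 10 spots of Tgfb1 had an SD of 0.05 on the log2 scale on the Pla2g4c siRNA array, against 0.11 on the control array.

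Bmp2 encodes a BMP ligand that acts through Smad1, Smad5 and Smad9. Its probe was dim, at 3.41% and 2.59% on the Pla2g4c siRNA array, against 3.78% and 3.99% on the control array. After scaling both spots of the Pla2g4c siRNA array were the lower, but the unscaled intensities overlapped, at 28.6 and 37.6 on the Pla2g4c siRNA array against 32.2 and 34.0 on the control array. The difference was -0.39 ± 0.26, and 17.9% of all genes had a lower one. It was 0.16 with spike-in scaling, where the median of all genes was 0.54, and stayed below 0 under the other 9 alternatives.

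Bambi encodes a membrane pseudoreceptor that resembles a type I receptor without a kinase domain and dampens TGF-beta, activin and BMP signalling. Its probe had 2 spots, and the value of Bambi rests on 1 of them. That spot was at 14.2% on the Pla2g4c siRNA array, against 5.65% on the control array, a difference of 1.33 ± 0.22 or 2.51-fold. The other spot was at 761% on the Pla2g4c siRNA array, against 3.51% on the control array, and the scanner software flagged it as a feature outlier on the Pla2g4c siRNA array. Those 2 spots of the same probe were 5.75 apart on the log2 scale on the Pla2g4c siRNA array. The flagged spot was left out, so it gives no second reading of the direction. With the flagged spot kept the difference was 4.54. Under normexp background correction it was 0.59, below 2-fold. The remaining spot itself carried a background outlier flag on both arrays, and with such spots left out too Bambi had no value.

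Smad7 encodes the inhibitory Smad that blocks activated type I receptors and is itself a target of TGF-beta and BMP signalling. Its level was 46.5% and 52.2% on the Pla2g4c siRNA array, against 52.5% and 44.7% on the control array. The spots overlapped, and the difference was 0.02 ± 0.20.

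Tgfbi encodes a secreted matrix protein named for its induction by TGF-beta. Its level was 432% and 389% of the 75th percentile on the Pla2g4c siRNA array, against 1281% and 1196% on the control array. Both spots of the Pla2g4c siRNA array were lower than both of the control array. The difference was -1.59 ± 0.20, or 3.02-fold lower, and 0.709% of all genes had a lower one. It stayed at least 2-fold lower under each of the 10 alternatives, between -1.60 with median scaling and -1.05 with spike-in scaling. As for Inhba, not all of these could change it.

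Id1, Id2 and Id3 encode helix-loop-helix proteins without a DNA-binding region, which pair with basic helix-loop-helix factors and keep them from DNA. Id1 was measured in 9 spots without a feature outlier flag. Their lowest, median and highest level was 67.5%, 71.4% and 74.8% on the Pla2g4c siRNA array and 118%, 132% and 139% on the control array. Some of these spots, the highest among them, carried a background flag on the Pla2g4c siRNA array. All 9 spots of the Pla2g4c siRNA array were lower than all 9 of the control array, while 58.4% of all measured probes with 9 or 10 spots had spots that did not overlap. The difference was -0.87 ± 0.20, and 4.44% of all genes had a lower one. With background-flagged spots left out too it was -0.88. It was below 0 but under 2-fold in each of the 10 alternatives, between -0.90 under cyclic loess and -0.32 with spike-in scaling.

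Id2 was at 22.7% and 24.4% on the Pla2g4c siRNA array, against 24.1% and 25.8% on the control array. The spots overlapped, and the difference of -0.08 ± 0.21 was within the software's error. Id3 had intensities of 3.94 and 2.84 on the Pla2g4c siRNA array, against 2.30 and 2.75 on the control array. None of these 4 spots was well above background, so that no fold is given for Id3.

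**Figure D2:**
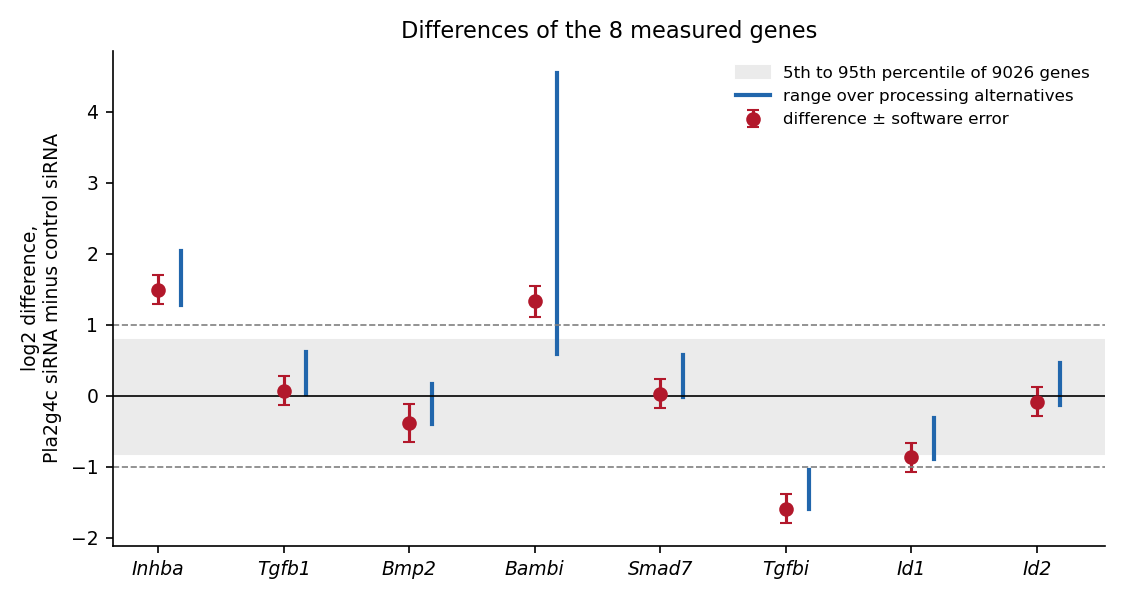
Log2 differences, Pla2g4c siRNA minus control siRNA, of the 8 measured genes (red circles, bars are the software's error), beside the range over the processing alternatives (blue lines). The grey band holds the 5th to 95th percentile of all 9026 measured genes, -0.82 to 0.78, and dashed lines mark 2-fold. Inhba, Tgfbi and Bambi lie outside the 2-fold lines, and the range of Bambi is the widest, from 0.59 to 4.54.

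The 250 bases upstream of the annotated transcript start are shown for the 4 genes with the differences furthest from 0, since 2 of them were higher and 2 lower. RefSeq promoters (build GRCr8) matched 8 of the 9 genes, all but Bmp2. Each sequence runs 5′ to 3′ on the strand of its gene, and capitals mark GGCGCC, a GC-rich site bound by BMP-activated Smads, or TATAAA, the TATA box.

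Inhba (GRCr8 chr17:53804509-53804758, minus strand): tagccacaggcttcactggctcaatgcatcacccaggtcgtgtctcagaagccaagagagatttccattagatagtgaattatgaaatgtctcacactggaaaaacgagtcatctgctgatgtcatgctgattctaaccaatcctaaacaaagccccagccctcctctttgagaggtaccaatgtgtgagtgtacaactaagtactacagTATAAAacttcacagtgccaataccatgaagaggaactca

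Bambi (GRCr8 chr17:58821004-58821253, minus strand): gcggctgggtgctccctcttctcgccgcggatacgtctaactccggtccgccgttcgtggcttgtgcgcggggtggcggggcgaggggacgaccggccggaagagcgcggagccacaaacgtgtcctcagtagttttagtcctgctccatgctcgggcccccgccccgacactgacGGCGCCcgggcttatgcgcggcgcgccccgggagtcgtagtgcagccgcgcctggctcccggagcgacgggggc

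Tgfbi (GRCr8 chr17:7990114-7990363, minus strand): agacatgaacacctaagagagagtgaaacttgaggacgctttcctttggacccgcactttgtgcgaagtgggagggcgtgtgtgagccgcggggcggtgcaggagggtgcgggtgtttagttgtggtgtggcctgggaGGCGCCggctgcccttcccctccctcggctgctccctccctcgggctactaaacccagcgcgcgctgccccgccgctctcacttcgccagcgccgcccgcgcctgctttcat

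Id1 (GRCr8 chr3:161671314-161671563, plus strand): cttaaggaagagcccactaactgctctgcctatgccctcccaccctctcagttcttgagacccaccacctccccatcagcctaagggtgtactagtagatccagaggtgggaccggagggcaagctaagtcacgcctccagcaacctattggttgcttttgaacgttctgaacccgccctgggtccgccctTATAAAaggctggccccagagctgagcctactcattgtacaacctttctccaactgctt

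GGCGCC, searched on both strands, stood in these windows of Bambi, Tgfbi and Smad7, and in 8.69% of the windows of all 33469 genes in the table. Its first base lay 74 bases before the start in Bambi, 112 in Tgfbi, and 96 and 36 in Smad7. Bambi, measured in 1 background-flagged spot, and Tgfbi both hold this match, and their differences have opposite signs. A part of the match in these differences was not tested. TATAAA, searched on the gene's strand, stood in the windows of Inhba and Id1, 40 and 59 bases before the start, and in 8.06% of all windows. CAGAC, the core of the Smad-binding element, and TGANTCA, the AP-1 site, were searched on both strands and stood in 0 of the 8 windows, while 42.9% and 6.34% of all windows held them. A match of these letters is not a binding site, and their absence here says only that they are not in these 250 bases.

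The wider pathway was described with 6 lists of ligands, receptors, Smads and their regulators, extracellular and membrane modulators, and target genes of TGF-beta and of BMP, which overlap in part and were also chosen with earlier results known. Of their 123 genes 114 had a named probe and 67 were measured on both arrays. Among the 59 measured genes that were not among the 9, 6 passed 2-fold in the higher direction (2.91% of all genes did) and 1 in the lower (3.05% of all genes did). Their median difference was 0.12. The 6 were Eng, Fst, Hmga2, Itgb6, Fn1 and Ccn1, and the 1 was Hes1.

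**Figure D3:**
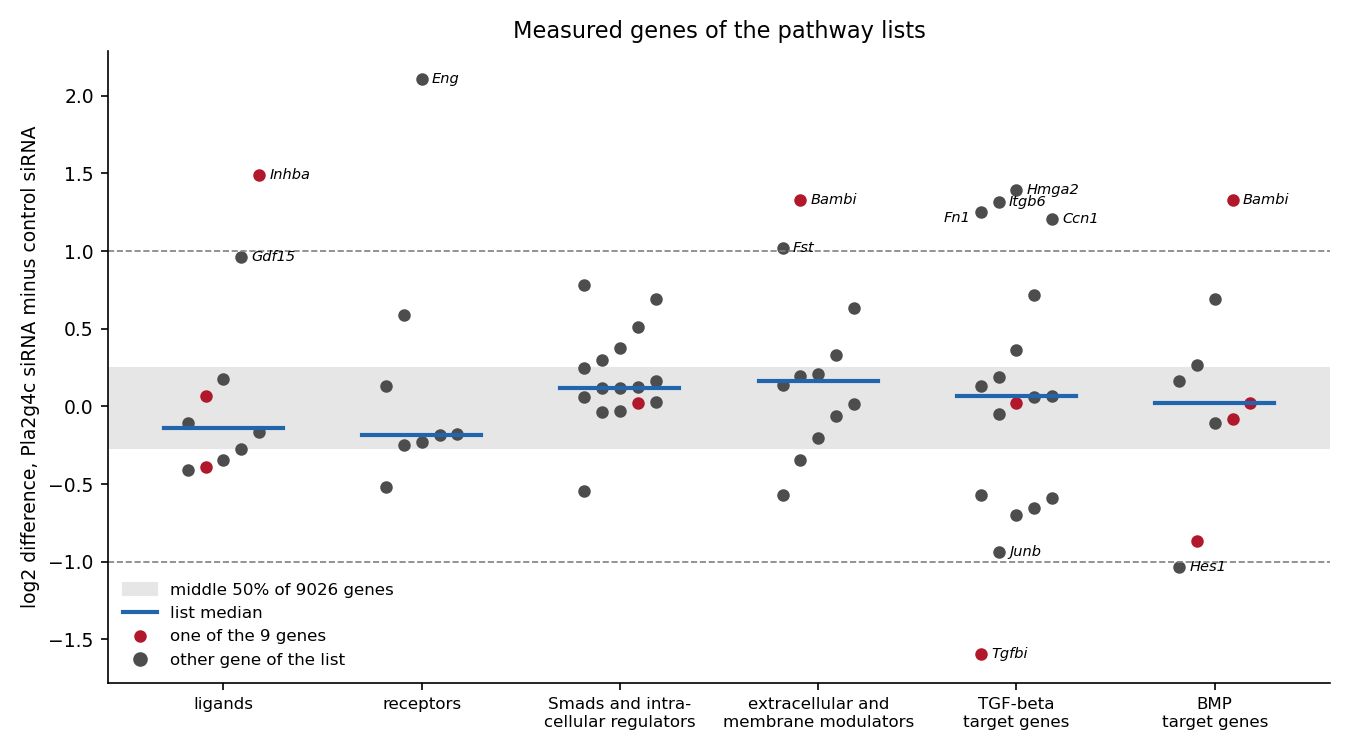
Log2 differences, Pla2g4c siRNA minus control siRNA, of the measured genes of the 6 pathway lists, with the 9 genes in red, other genes in grey and list medians as blue bars. The grey band is the middle 50% of all 9026 measured genes, -0.27 to 0.25, and dashed lines mark 2-fold. All 6 list medians lie within the band, and Eng at 2.11 is the highest point.

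Of 31 ligand genes 10 were measured, with a median of -0.14, and 15 had no spot well above background, among them Tgfb3, Bmp4, Bmp6, Inha and Nodal. Inhba was the 1 ligand at least 2-fold higher, and 0 were lower by that much (2.91% and 3.05% of all genes were). Gdf15, a stress-induced distant member of the family, followed at 0.96 ± 0.21, and Bmp8a, at -0.41 ± 0.26, was the lowest. Inhbb, which encodes the beta B activin subunit, was bright and differed by -0.16 ± 0.20, and the BMP ligand Bmp7 differed by 0.17 ± 0.20.

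Fst encodes follistatin, a secreted protein that binds and neutralises activin. Its level was 351% on the Pla2g4c siRNA array, against 173% on the control array, a difference of 1.02 ± 0.20. Fst was at least 2-fold higher under all 10 alternatives, not all of which could change it, although only just under normexp correction, at 1.001. The related Fstl3 differed by 0.33 ± 0.25. Inhba and Fst, an activin subunit and an activin antagonist, were thus both at least 2-fold higher.

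Among the modulators 12 of 26 genes were measured, with a median of 0.17. Bambi, in 1 background-flagged spot, and Fst were at least 2-fold higher and 0 lower by that much (2.91% and 3.05% of all genes were). Thbs1, which encodes an activator of latent TGF-beta, was lowest at -0.57 ± 0.28, and Ltbp4, a latent TGF-beta binding protein, differed by -0.35 ± 0.20. Ltbp2 and the BMP antagonist Nbl1 were well above background in all their spots on the Pla2g4c siRNA array, against 1 of 4 spots and 1 of 2 spots on the control array. The control level was taken as the dim probe's own level or the lowest level well above background, whichever was higher. Ltbp2 was 3.30-fold higher by this rule, averaged over its 2 probes. That value mixes a lower bound from 1 probe with a plain ratio from the other, and is no strict lower bound. For Nbl1 its own control level was the higher, so 2.79-fold is the plain ratio of 4.50% to 1.62% and no lower bound. No software error and no value under the alternatives is given for either gene.

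Of 14 receptor genes 8 were measured, with a median of -0.18. Eng encodes endoglin, a co-receptor for TGF-beta and BMP ligands best known from endothelium. Its level was 20.7% on the Pla2g4c siRNA array, against 4.82% on the control array, a difference of 2.11 ± 0.23 or 4.30-fold. It remained at least 2-fold higher under all 10 alternatives, not all of which could change it, with 1.19 under normexp correction as the lowest value. Of 5 endothelial marker genes 4 had a named probe. Cdh5 was measured, at 5.53% on the Pla2g4c siRNA array against 7.32% on the control array, a difference of -0.40 ± 0.23, while Pecam1, Kdr and Tek had 0 spots well above background. The type I receptor Tgfbr1 differed by 0.59 ± 0.20 and the type II receptor Tgfbr2 by 0.13 ± 0.21. The BMP receptor Bmpr2 was lowest at -0.52 ± 0.21, with 0.03 under spike-in scaling, and the activin receptor Acvr2b differed by -0.25 ± 0.27.

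Of 21 genes of Smads and intracellular regulators 16 were measured, with a median of 0.12, and 0 differed at least 2-fold in either direction. Over all genes 2.91% were at least 2-fold higher and 3.05% lower. The corepressor Tgif1, at 0.78 ± 0.20, and the inhibitory Smad6, at 0.69 ± 0.22, were highest. Under normexp correction Smad6 was 0.23. Tgif2, at -0.55 ± 0.21 but above 0 in 2 of the 10 alternatives, and the Smad phosphatase gene Ppm1a, at -0.04 ± 0.21, were lowest. Of the Smads that receptors phosphorylate, Smad1 differed by 0.37 ± 0.20, Smad5 by 0.16 ± 0.21 and Smad2 by 0.12 ± 0.21, while Smad3 and Smad9 had no spot well above background.

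Among TGF-beta target genes 18 of 25 were measured, with a median of 0.07. Of these 4 were at least 2-fold higher (2.91% of all genes were) and Tgfbi was lower by that much (3.05% were). At a 1.5-fold threshold 5 targets were higher and 5 lower, and 784 and 929 of all 9026 genes. Under normexp correction 1 target was at least 2-fold higher and 1 lower. Hmga2, an architectural chromatin factor, was at 17.9% on the Pla2g4c siRNA array, against 6.81% on the control array, a difference of 1.39 ± 0.21. Itgb6 encodes the beta 6 integrin subunit, part of an epithelial integrin that activates latent TGF-beta, and was at 319% on the Pla2g4c siRNA array, against 128% on the control array (1.32 ± 0.20). Fn1, fibronectin, differed by 1.25 ± 0.22, with its 2 probes at 1.19 and 1.31, and the matricellular gene Ccn1 by 1.21 ± 0.23 in 1 spot. Normexp correction put Hmga2 at 0.87, Fn1 at 0.85 and Ccn1 at 0.54, below 2-fold, and Itgb6 at 1.26.

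The transcription factor gene Junb was, after Tgfbi, the lowest target, at -0.93 ± 0.20. Pmepa1, a direct Smad target named after its value was seen, differed by 0.06 ± 0.20. The targets Ccn2 and Tagln had no spot well above background. TGF-beta targets therefore included genes at least 2-fold higher, genes near 0 and a gene at least 2-fold lower.

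Of 14 BMP target genes 9 were measured, with a median of 0.02. Bambi, in 1 background-flagged spot, was the 1 at least 2-fold higher and Hes1 the 1 at least 2-fold lower. Over all genes the shares were 2.91% and 3.05%. Hes1 encodes a repressor that is also a Notch target, and its level was 7.46% on the Pla2g4c siRNA array, against 15.3% on the control array, a difference of -1.03 ± 0.21. It was -0.76 under normexp correction, -0.90 in the deposited normalized values and -0.48 with spike-in scaling, all below 2-fold. With background-flagged spots left out too it was -0.97, also below 2-fold. Under the other 6 alternatives, not all of which could change it, it was at least 2-fold lower. Id1 and Hes1 were the lowest of this list, while Smad6, Msx2 and Smad7, also BMP targets, were at 0.69, 0.16 and 0.02. Under normexp correction Msx2 was -0.12 and Smad7 -0.02, and Smad7 was also -0.02 under cyclic loess.

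**Figure D4:**
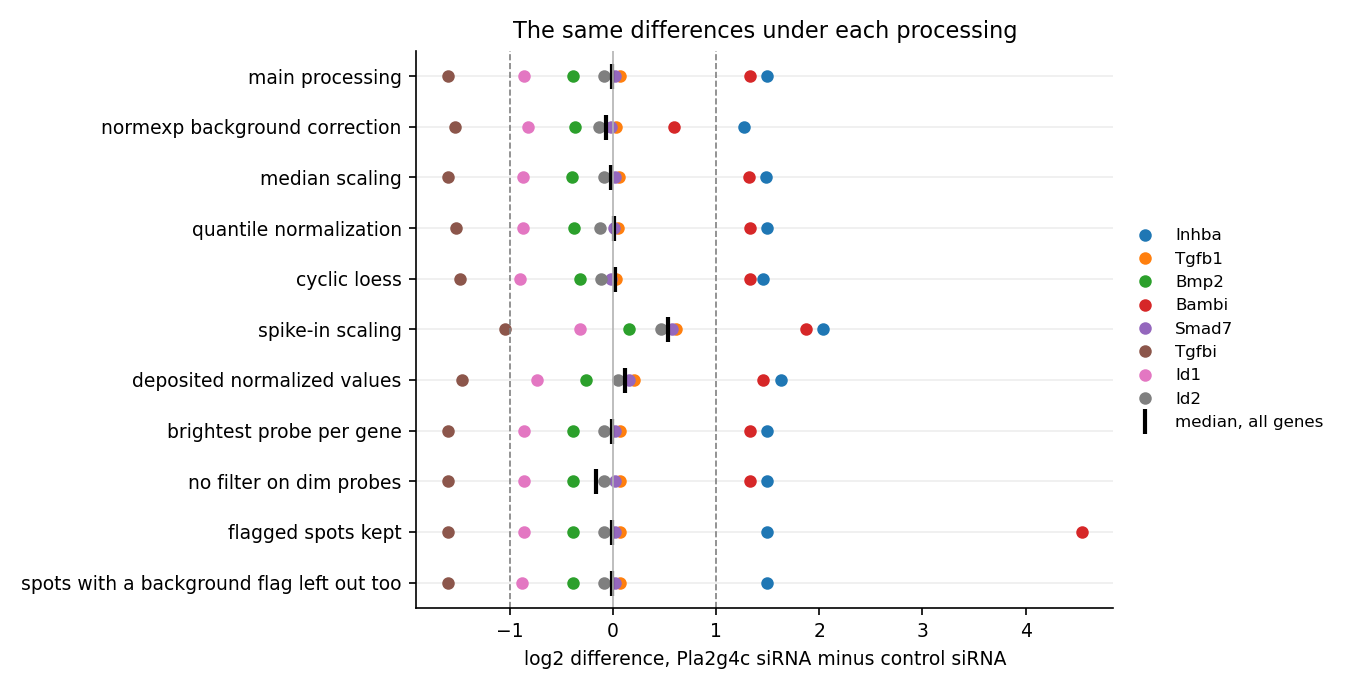
Log2 differences, Pla2g4c siRNA minus control siRNA, of the 8 measured genes under the main processing and 10 alternatives, 1 row each, with the median of all genes as a black tick and dashed lines at 2-fold. Spike-in scaling moves all genes up together with the median of 0.54, and Bambi lies at 1.33 in the main processing, at 0.59 under normexp correction and at 4.54 with flagged spots kept. It has no value where spots with a background flag were left out too.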

How the data were processed

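Total RNA, labelled with Cy3, of 2 RMT-1 cell samples was measured on Agilent one-colour rat arrays of 30367 gene probes, 1 array per group, per the labels. The deposited scanner files hold spot intensities and flags of Agilent Feature Extraction, version 10.10.1.1 in the file headers and 10.10 in the submitters' processing notes, with no normalization between arrays. A further table of deposited normalized intensities equals the processed signal times 1.50 on the Pla2g4c siRNA array, against 1.77 on the control array, as computed from the values, with no method stated in its header. For arrays depth means signal over background, and the share of gene spots that the software called well above background was 63.1% for the Pla2g4c siRNA array, against 61.9% for the control array, 381 and 466 carried a feature outlier flag, and 0 were saturated. Precision is limited by the number of arrays. The headers give 1 slide and 1 scan for the pair, so there was no such batch to compare.

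Levels are log2 of the processed signal minus that of the array's 75th percentile over all gene spots. A spot with a feature outlier flag on either array was left out, spots of a probe were averaged, and a probe counted as measured if every spot left stood well above background on the 2 arrays. Several measured probes of a gene were averaged. Probes were named by RefSeq accession, which gave 18006 of 30367 probes (59.3%) a symbol. The software's error of a difference had a median of 0.20. Named were the 9 genes and every other measured gene of the pathway lists at 2-fold. Genes of the lists at 2-fold by a bound or, for Nbl1 and in part for Ltbp2, by a ratio were named too. So were up to 2 genes at each end of each list. Further measured genes, such as Inhbb, Bmp7, Fstl3, Tgfbr2, Smad1, Smad2, Smad5, Msx2 and Pmepa1, were named outside these rules. The members and lists were chosen with earlier results of these data known. Alternatives were normexp (offset 50, on median spot signals), median, quantile, cyclic loess and spike-in scaling, the deposited values, the brightest probe, no filter on dim probes, flagged spots kept, folds of 1.5 and 3, and probes for genes. Python 3.11.15 (numpy 2.4.6, pandas 2.3.3, matplotlib 3.10.9) and limma 3.58.1 in R 4.3.3 were used, and the steps were tested on simulated data.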

Additional observations from a re-analysis of the deposited data

How the results depend on the processing

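No paired analysis was possible because each group had 1 array, and no array could be left out. Spike-in scaling gave differences of 2.04 for Inhba, 1.87 for Bambi, -1.05 for Tgfbi, 0.62 for Tgfb1, 0.16 for Bmp2, -0.32 for Id1, 0.46 for Id2 and 0.57 for Smad7, a median of 0.52 over the measured members, and 1171 genes at least 2-fold higher and 68 lower, with all genes shifted together. Normexp correction gave 1.27 for Inhba and 0.59 for Bambi, so that 1 member was at least 2-fold higher, and 116 and 154 genes over the array. With flagged spots kept Bambi was 4.54. Leaving out spots with a background flag too, an alternative chosen after seeing the data, left 1 member at least 2-fold higher, since Bambi then had no value. Without the filter on dim probes Id3 had a difference of 0.04 between spots not well above background, and 539 and 765 genes were at least 2-fold higher and lower. A 1.5-fold threshold gave 784 and 929 genes and 2 members lower, and a 3-fold threshold 85 and 65 genes, 0 members higher and Tgfbi lower. By probes, named or not, 384 of 16840 (2.28%) were at least 2-fold higher and 558 (3.31%) lower. Median scaling, quantile normalization, cyclic loess and the deposited values moved the 8 measured members by less than their error. The brightest probe could not move them, since each has 1 probe. Of 214 further counts and medians of the lists under the alternatives, 37 moved and 177 did not, but not every alternative could move them. A count was called moved if it changed by more than 1.5-fold, or to or from 0. A median was called moved if it changed by at least the median software error of 0.20. Dim spots limit Bmp2 and Bambi, and Id3 was not measurable at this signal.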
